A study of Mus musculus with 2 samples.

Results

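Neuron.8 is the cluster of nuclei that the authors' deposited metadata name neuron.8, and it was taken as deposited. It held 53 of the 18281 brainstem nuclei, 44 of 9259 in the WT library and 9 of 9022 in the HET library. The nuclei came from 1 wild-type (WT) and 1 *Scn1a* knock-in (HET, Scn1aA1783V/WT) mouse, both female, on a C57Bl6 background, 41 days old and untreated. The HET allele is a missense knock-in that lowers the function of the voltage-gated sodium channel NaV1.1, and it was brought in by crossing a floxed *Scn1a* male with a Sox2-Cre female, whose recombinase acts in the early embryo. The WT mouse is described as a littermate, and a genotype stands for a single library, so the 2 genotypes were not tested against each other. Neuron.8 was therefore described against the 11458 nuclei of the 8 other neuron clusters, and its 2 libraries are given side by side without comparison.

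Neuron.8 was cholinergic motor neuron-like by its listed markers. *Isl1* and *Prph* of these were also among its 10 leading genes by ratio to the other neuron clusters. Genes entered that ranking through their neuron.8 counts, so the ranks are no test of this name. Motor neurons sit in the motor nuclei of the cranial nerves and send their axons out of the brain to muscles or autonomic ganglia. They make acetylcholine with choline acetyltransferase (*Chat*), load it into vesicles with the transporter encoded by *Slc18a3* and take choline back up with the transporter encoded by *Slc5a7*. Their lineage is known for the LIM homeodomain transcription factor Isl1 and for peripherin (*Prph*), an intermediate filament protein of neurons with peripheral axons.

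Levels are unique molecular identifiers (UMIs, 1 per captured RNA molecule) added up over a cluster's nuclei and scaled to a total of 1000000 UMIs (CPM). Square brackets give 95% intervals, exact Poisson for levels and ratios and Clopper-Pearson for shares of nuclei. They cover counting error only, not the spread between nuclei or mice. Since the clusters were built on these counts, ratios between clusters describe the clusters and carry no test.

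Of the 7 marker genes listed for cholinergic or motor neurons, all had at least 1 UMI in neuron.8. *Chat* gave 244 UMIs and a level of 158 CPM [139, 180], against 4.09 CPM in the other neuron clusters, a ratio of 38.8 [33.0, 45.4]. Its level was 151 CPM in the WT nuclei and 201 CPM in the HET nuclei. The number of *Chat* UMIs per nucleus ran from 0 to 11, with a median of 4, and 42 of 44 WT and 9 of 9 HET nuclei had at least 1.

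*Slc5a7* gave 374 UMIs and 243 CPM [219, 269], which was 34.2-fold [30.1, 38.7] the level of the other neuron clusters. It stood at 241 CPM in the WT and 251 CPM in the HET nuclei, with 0 to 19 UMIs per nucleus and a median of 7. *Isl1* gave 101 UMIs and 65.6 CPM [53.4, 79.7], 97.1-fold [71.3, 133] the other neuron clusters. *Isl1* levels were 68.4 CPM in the WT and 50.2 CPM in the HET nuclei, and 43 nuclei had a UMI of it. *Prph* gave 330 UMIs and 214 CPM [192, 239], 63.3-fold [54.4, 73.6] the other neuron clusters, with 221 CPM in the WT and 176 CPM in the HET nuclei. All 4 genes were thus high in neuron.8 nuclei of both libraries. The nearest other cluster was neuron.1 for *Chat*, at 4.90 CPM, and neuron.7 for *Isl1*, at 1.12 CPM. For *Slc5a7* and *Prph* it was neuron.9, at 10.8 CPM from 1 UMI and at 53.9 CPM from 5 UMIs.

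The other 3 markers were less decisive. *Ecel1*, an endopeptidase-like membrane protein of peripheral axons, reached 87.0 CPM in neuron.8, 7.80-fold [6.48, 9.33] the other neuron clusters, but it stood at 66.2 CPM in neuron.6. *Slc18a3*, whose gene lies inside the *Chat* locus on the same strand (chr14:32462438-32464850), gave 12 UMIs in 10 nuclei, at 7.79 CPM [4.03, 13.6] against 0.423 CPM. *Mnx1*, a homeodomain factor of spinal motor neurons, gave 2 UMIs in 1 nucleus.

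**Figure D1:**
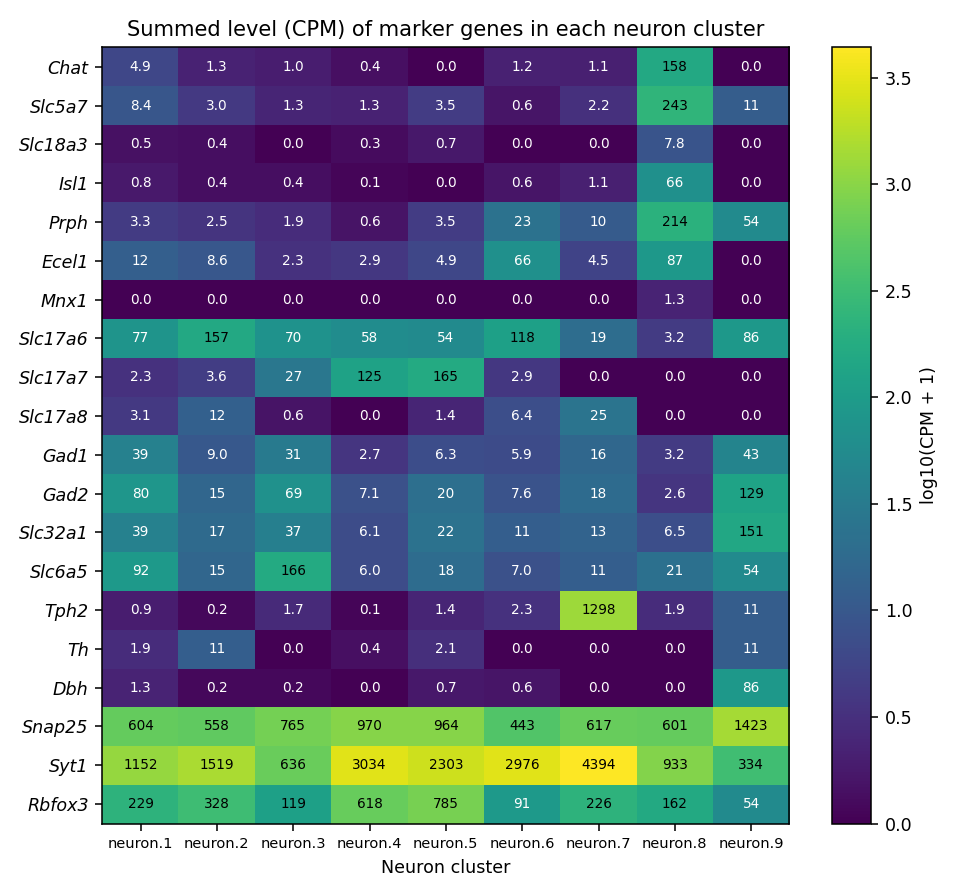
Summed level of 20 marker genes in the 9 neuron clusters, with the gene on the vertical axis, the cluster on the horizontal axis, the CPM printed in each cell and its log10 shown as colour. *Chat*, *Slc5a7*, *Slc18a3*, *Isl1* and *Prph* were highest in neuron.8, where *Slc17a7*, *Slc17a8*, *Th* and *Dbh* had no UMIs.

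The markers occurred together in single nuclei. A UMI of both *Chat* and *Slc5a7* was found in 50 of 53 nuclei, and of *Chat*, *Slc5a7*, *Prph* and *Isl1* in 41 of 53. At least 4 of the 7 markers were present in 51 of 53 nuclei, 42 of 44 WT and 9 of 9 HET. Neuron.8 nuclei were deep, so these shares were also computed for 1000 UMIs drawn from every nucleus. *Chat* was present in 96.2% [87.0, 99.5] of neuron.8 nuclei as sequenced and in 14.5% at 1000 UMIs, against 0.372% of other neuron nuclei at 1000 UMIs. The non-neuronal nuclei used were 5736 oligodendrocyte, astrocyte, endothelial and microglial nuclei, for which cluster and reference label matched and which should lack the gene. In them the shares were 0.436% as sequenced and 0.116% at 1000 UMIs. Their median depth was 2835 UMIs, against 27192 UMIs in neuron.8. *Isl1* was present in 6.72% of neuron.8 nuclei at 1000 UMIs, against 0.0664% of other neuron and 0.0865% of non-neuronal nuclei.

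These 4 genes are shown with the 250 bases before their RefSeq start, because they were high together in neuron.8. The windows are on GRCm38.p6, at chr13:116309689-116309938 for *Isl1*, chr15:99054924-99055173 for *Prph*, chr14:32465910-32466159 for *Chat* and chr17:54299035-54299284 for *Slc5a7*. *Prph* is on the plus strand and the others are on the minus strand. Capitals mark TAAT or its reverse complement ATTA, the core letters read by many homeodomain factors, searched on both strands.
Isl1: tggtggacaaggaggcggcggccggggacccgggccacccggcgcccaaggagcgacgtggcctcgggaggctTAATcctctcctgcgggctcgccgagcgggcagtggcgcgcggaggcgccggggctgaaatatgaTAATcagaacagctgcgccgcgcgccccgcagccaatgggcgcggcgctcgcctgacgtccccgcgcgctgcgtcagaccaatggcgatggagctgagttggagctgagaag
Prph: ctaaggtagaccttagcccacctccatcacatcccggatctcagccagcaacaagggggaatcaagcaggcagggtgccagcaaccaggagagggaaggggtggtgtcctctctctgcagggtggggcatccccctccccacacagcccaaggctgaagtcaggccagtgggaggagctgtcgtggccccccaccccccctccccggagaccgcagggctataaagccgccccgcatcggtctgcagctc
Chat: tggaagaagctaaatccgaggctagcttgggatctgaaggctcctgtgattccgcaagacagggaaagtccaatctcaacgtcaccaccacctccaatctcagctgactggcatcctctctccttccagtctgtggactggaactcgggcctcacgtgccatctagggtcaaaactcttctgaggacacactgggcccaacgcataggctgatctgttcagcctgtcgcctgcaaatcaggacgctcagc
Slc5a7: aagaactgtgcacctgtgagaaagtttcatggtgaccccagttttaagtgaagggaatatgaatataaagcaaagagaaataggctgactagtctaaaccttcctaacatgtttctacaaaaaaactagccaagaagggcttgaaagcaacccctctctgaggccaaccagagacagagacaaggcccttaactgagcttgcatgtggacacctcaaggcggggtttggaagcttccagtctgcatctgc
The *Isl1* window held 2 such matches and the other 3 windows held 0. Of all 32851 RefSeq promoter windows cut to 250 bases, 54.9% held at least 1.

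Other transmitter systems were near 0 in neuron.8. *Slc17a6*, the vesicular glutamate transporter of most brainstem glutamatergic neurons, gave 5 UMIs in 5 nuclei, at 3.25 CPM against 79.3 CPM in the other neuron clusters, 24.4-fold lower [10.5, 75.2]. The other vesicular glutamate transporters, *Slc17a7* and *Slc17a8*, had no UMIs. The GABA synthesis gene *Gad2* gave 4 UMIs, at 2.60 CPM against 68.9 CPM, and *Gad1* gave 5 UMIs, at 3.25 CPM against 33.6 CPM. *Slc32a1*, the vesicular transporter of GABA and glycine, was present as 1 UMI in each of 10 nuclei, at 6.49 CPM against 35.2 CPM. *Th* and *Dbh*, which encode catecholamine enzymes, had no UMIs, which allows up to 1.95 CPM at a limit of 3 counts. *Tph2*, the enzyme of serotonin neurons, gave 3 UMIs. In 52 of 53 nuclei the summed UMIs of *Chat*, *Slc5a7* and *Slc18a3* exceeded both the glutamatergic sum and the sum of the 4 GABA and glycine genes.

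The exception was 1 WT nucleus of 15205 UMIs with no UMI of *Chat*, *Slc5a7*, *Isl1* or *Prph* and 17 UMIs of *Slc6a5*, the plasma membrane glycine transporter of glycinergic neurons. It carried 17 of the 33 *Slc6a5* UMIs of neuron.8. With it, *Slc6a5* stood at 21.4 CPM in neuron.8, and without it at 10.5 CPM, against 83.0 CPM in the other neuron clusters. The same nucleus lay outside the main group in a second deposited clustering of the same nuclei.

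**Figure D2:**
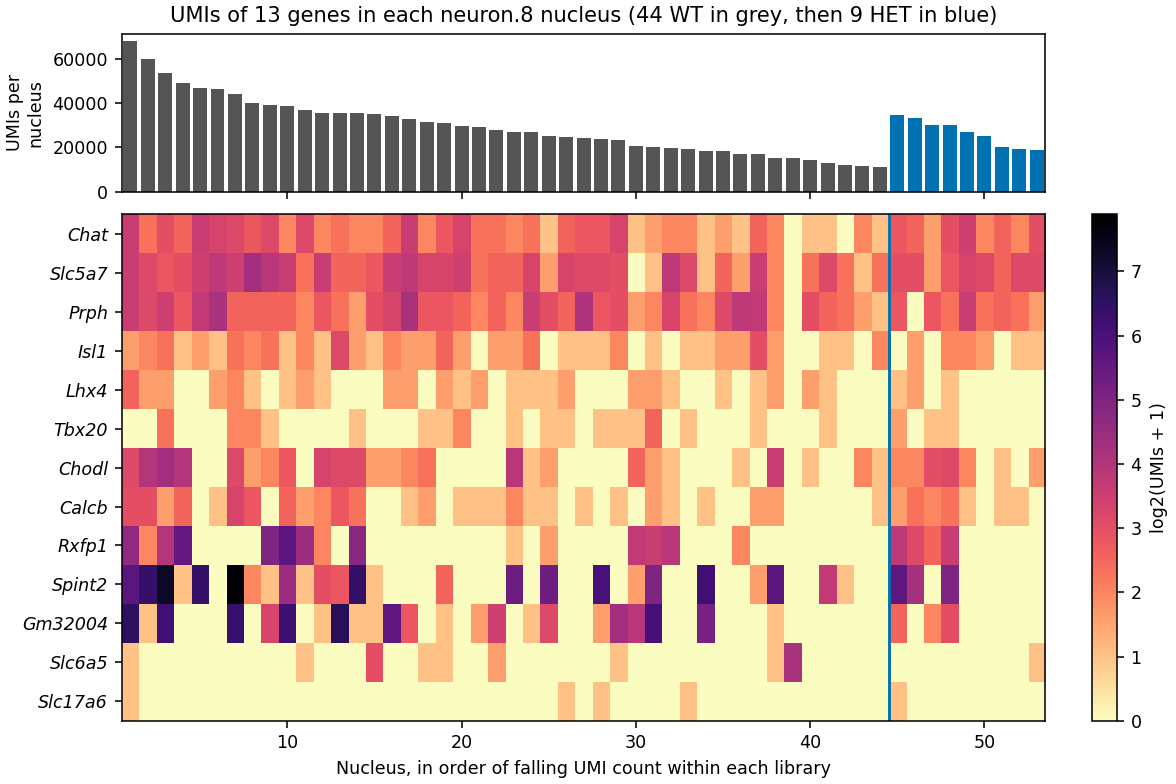
UMIs of 13 genes in each of the 53 neuron.8 nuclei, as log2(UMIs + 1) in colour, under the total UMIs per nucleus (bars), with the 44 WT nuclei left of the blue line and the 9 HET nuclei right of it. *Chat*, *Slc5a7* and *Prph* filled nearly every column, *Slc6a5* was concentrated in 1 WT nucleus that lacked them, and *Rxfp1*, *Spint2* and *Gm32004* were high in some nuclei and at 0 in others.

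Neuron.8 nuclei had the highest median depth of the 9 neuron clusters. The median was 27192 UMIs per nucleus (range 11253 to 68035), and the medians of the other 8 clusters ran from 2034 UMIs in neuron.9 to 13029 UMIs in neuron.4. The median was 27562 UMIs in the WT and 27182 UMIs in the HET nuclei of neuron.8. All 53 nuclei had at least 10000 UMIs, compared with 35.3% of the other neuron nuclei. The median number of genes detected was 6335, against 3354 in the other neuron clusters. The deposited percentage of mitochondrial UMIs had its lowest median among the neuron clusters here, 0.0882%, against 0.273% in the other neuron nuclei.

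**Figure D3:**
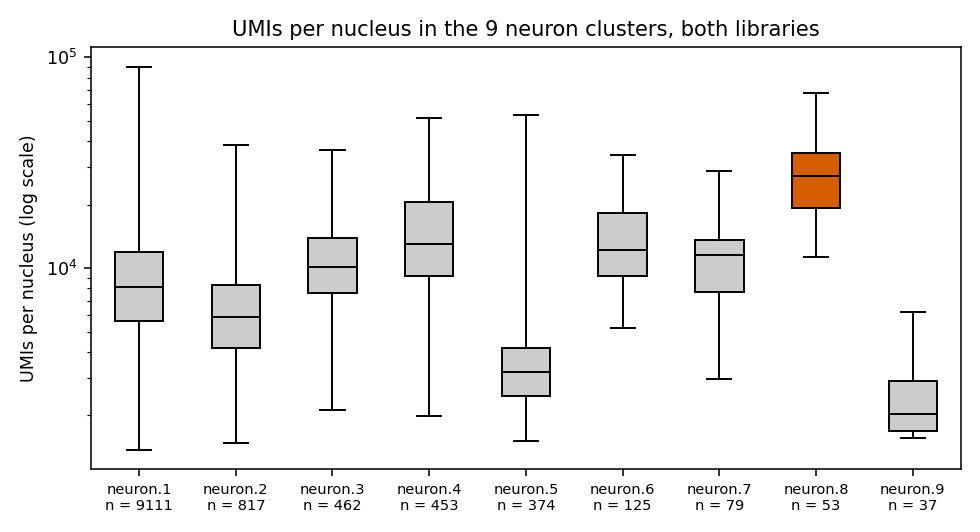
UMIs per nucleus on a log axis for the 9 neuron clusters, with the number of nuclei under each, boxes from the first to the third quartile, a line at the median and whiskers to the lowest and highest nucleus. The neuron.8 median of 27192 UMIs lay above the other 8 medians, of which the highest was 13029 UMIs.

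The deposited doublet score also had its highest median in neuron.8, 0.326, against 0.155 in the other neuron nuclei, and 30 of the 53 nuclei were in the top 5% of all nuclei by this score. Glial markers, which a doublet of a neuron with a glial cell would hold, were given by list. The 7 oligodendrocyte markers summed to 208 CPM in neuron.8, below the 364 to 5649 CPM of the other 8 neuron clusters. The 8 microglia markers summed to 180 CPM, within the 169 to 218 CPM of the other neuron clusters, of which *P2ry12*, a gene that lies inside another gene, *Med12l*, supplied 137 CPM against 131 CPM. The defining microglia genes *Csf1r* and *Tmem119* had no UMIs, where the levels of the other neuron clusters predicted 4.27 and 1.26. The 8 astrocyte markers summed to 147 CPM, against 74.8 to 1186 CPM. A doublet with another neuron was not tested. Among the 23 nuclei below the top 5%, 6 of the 7 cholinergic or motor neuron markers were at least 4-fold higher than in the other neuron clusters. The seventh, *Mnx1*, had no UMIs. This marker count set no minimum number of UMIs, and *Slc18a3*, 1 of the 6, had only 12 UMIs in all 53 nuclei. Of the 2201 genes with enough UMIs to be tested without the top 5%, 62 were at least 4-fold higher.

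Some marker lists of peripheral or vascular cells held 1 high gene. *Pmp22*, a peripheral myelin protein that other cells also make, supplied 71 of the 103 UMIs of the 6 Schwann cell markers and stood at 46.1 CPM in neuron.8 against 6.59 CPM. The list summed to 66.9 CPM, against 15.8 to 151 CPM in the other neuron clusters. *Pdgfrb*, a pericyte receptor, supplied 53 of the 64 UMIs of the 6 pericyte or smooth muscle markers, from 4 nuclei. That list summed to 41.6 CPM, against 11.4 to 140 CPM.

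Neuron.8 nuclei stayed mostly together in the deposited clusterings. The same 53 nuclei, and no others, formed 1 cluster at both deposited resolutions of the SCT-normalized clustering, 0.8 and 1.5. The neuron.8 label thus equals a cluster of that clustering, and its match there is no separate support. In the clustering of the unnormalized assay, 48 of them were in a cluster of 50 nuclei and 5 were in a cluster of 2915. Those 5 WT nuclei were shallow for neuron.8, with 11253 to 15205 UMIs, and 4 of them had a UMI of *Chat* or *Slc5a7*. The reference label of all 53 nuclei was neuron. The 2 libraries shared 23 cell barcodes, none of them from a neuron.8 nucleus.

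Neuron.8 nuclei made up 0.475% [0.345, 0.637] of WT nuclei and 0.0998% [0.0456, 0.189] of HET nuclei. As a share of the neuronal nuclei they were 0.719% [0.523, 0.964] in WT and 0.167% [0.0763, 0.317] in HET. A share from 1 library cannot be told apart from what part of the brainstem was dissected into it, and no further comparison between the genotypes was made. *Scn1a* itself, the edited gene, gave 603 UMIs in 52 of 53 nuclei, at 392 CPM [361, 424] in neuron.8 against 461 CPM in the other neuron clusters. A missense change leaves the transcript in place, so this level does not check the genotype.

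Across the transcriptome, 5820 genes had at least 50 UMIs in neuron.8 or enough in the other neuron clusters to predict 50. Of these, 154 were at least 4-fold higher in neuron.8 (2.65%) and 140 at least 4-fold lower (2.41%). The filter itself favours large ratios, since 492 genes passed it through neuron.8 alone and 986 through the other clusters alone. The median ratio over all 5820 genes was 0.883.

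The 25 genes with the largest ratios were drawn from those with at least 50 UMIs in at least 10 nuclei, and 16 of them are protein-coding in GENCODE vM21. The largest ratio belonged to the long noncoding RNA *Gm45368* (chr8:37322385-37350753), with 77 UMIs in 17 nuclei and a ratio of 163 [108, 252]. *Isl1*, *Prph*, *Chat* and *Slc5a7* were among the 25. At the lower edge, *Lgals1* had a ratio of 19.0 and was in, and *Stk32a* had a ratio of 18.9 and was out.

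Peptide and receptor genes of motor neurons followed. *Calcb*, which encodes the peptide beta-CGRP that motor neurons release at muscle, gave 95 UMIs in 35 nuclei, at 61.7 CPM [49.9, 75.4] against 0.982 CPM, a ratio of 62.8 [47.2, 83.5]. It stood at 60.7 CPM in the WT and 67.0 CPM in the HET nuclei. Its neighbour and paralog *Calca* reached 26.6 CPM from 41 UMIs, against 5.68 CPM. The 2 genes lie apart on opposite strands. How any reads that match both were divided is not given in the sources used here. *Chodl*, a membrane lectin known from fast motor neurons, gave 181 UMIs in 33 nuclei, at 118 CPM against 1.60 CPM, a ratio of 73.3 [59.3, 90.7], with 118 CPM in the WT and 113 CPM in the HET nuclei. *Vipr2*, a receptor for VIP and PACAP peptides, gave 114 UMIs in 41 nuclei, at 74.0 CPM against 1.94 CPM. The nearest other cluster was neuron.7 for *Chodl*, at 30.1 CPM, and neuron.5 for *Vipr2*, at 36.3 CPM. The antisense RNA *Gm20658*, which lies within *Vipr2* on the opposite strand (chr12:116102769-116138648), had a ratio of 53.6 [43.9, 65.4], and whether strand was used in counting is not stated.

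*Grin3b*, an NMDA receptor subunit typical of motor neurons, gave 125 UMIs in 42 nuclei, at 81.2 CPM against 4.06 CPM, a ratio of 19.98 [16.3, 24.4]. *Rspo2*, a secreted Wnt enhancer known at the nerve to muscle synapse, gave 189 UMIs in 37 nuclei and a ratio of 23.8 [20.1, 28.1]. *Anxa2*, a calcium-dependent membrane protein, was present in 43 nuclei, and *Aox1*, an aldehyde oxidase, in 46 nuclei. Their ratios were 42.5 [33.0, 54.6] and 35.0 [28.9, 42.2]. *Aox1*, *Pdgfd* and *Tns1* were also found in non-neuronal nuclei, at 1000 UMIs in 1.96%, 6.56% and 2.54% of them, against 9.56%, 15.6% and 14.5% of neuron.8 nuclei. *Tns1*, a protein of cell adhesion sites, was higher in neuron.7, at 191 CPM, than in neuron.8, at 166 CPM.

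Several of these ratios moved by more than 1.5 times with the nuclei or the reference used. All stayed above 1, which the choice of the largest ratios made likely. In the WT library alone the log2 ratio of *Gm45368* was 8.75 in place of 7.35, outside its counting interval. With each other cluster weighted equally, the log2 ratio was 4.80 in place of 6.20 for *Chodl*, 4.12 in place of 5.98 for *Prph*, 3.13 in place of 5.41 for *Anxa2* and 3.32 in place of 5.26 for *Vipr2*, and it was 7.01 in place of 5.28 for *Chat*. Without the nuclei in the top 5% of doublet scores, it was 3.76 in place of 5.64 for *Spint2*, a protease inhibitor, 4.85 for *Chodl* and 3.18 in place of 4.57 for *Rspo2*.

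Among the 10 genes with the smallest ratios, those named here were near 0 in neuron.8. *Ebf2*, a transcription factor of other brainstem and cerebellar lineages, had no UMIs, against 65.6 CPM in the other neuron clusters, which is at least 33.7-fold lower at a limit of 3 counts over the cluster. *Camk2a*, a kinase subunit of excitatory synapses, gave 1 UMI against 74.5 CPM, and *Foxp2*, a transcription factor with its highest level in neuron.6, gave 2 UMIs against 84.8 CPM. *Chrm3*, the M3 muscarinic receptor, gave 11 UMIs in 5 nuclei, at 7.14 CPM against 345 CPM, 48.3-fold lower [27.0, 96.7]. *Simc1*, *D130079A08Rik*, *Baiap3*, *Adamts16* and *Dcx*, a microtubule protein of young neurons, gave 1 to 4 UMIs each.

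**Figure D4:**
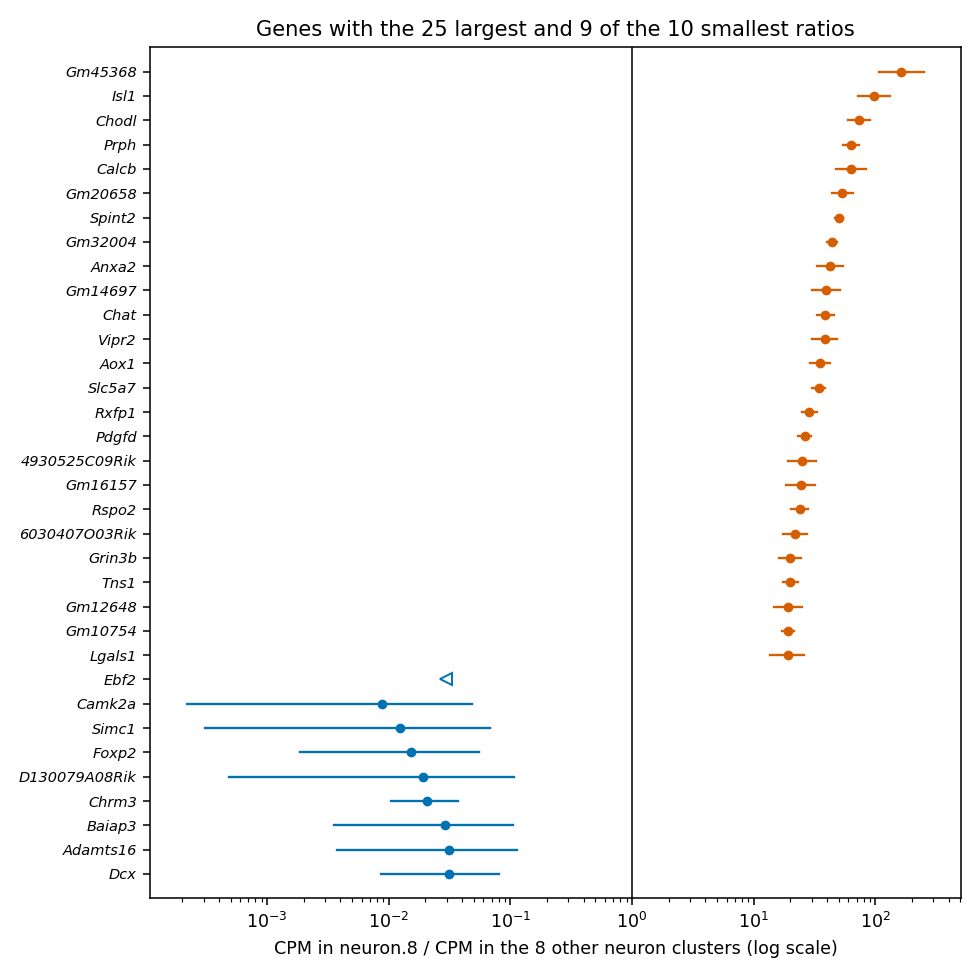
Ratio of CPM in neuron.8 to CPM in the 8 other neuron clusters, on a log axis, for the 25 top and 9 of the 10 bottom genes by ratio, as points with 95% counting intervals. The ratios ran from 163 for *Gm45368* down to 19.0 for *Lgals1*, and *Ebf2*, with no UMIs in neuron.8, is drawn as an open triangle at its limit of 3 counts.

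Genes of motor neuron lineage and type, chosen after the values had been seen, added detail and get no test. Of 13 such lineage transcription factors, 10 had a UMI in neuron.8 and *Isl1* was the only one to pass the filter. *Lhx4*, a LIM homeodomain factor that acts early in motor neuron fate, gave 49 UMIs in 29 nuclei, at 31.8 CPM against 2.41 CPM, whereas its relative *Lhx3* had none. The homeodomain factor *Nkx6-1* also had none, *Isl2*, a relative of *Isl1*, gave 2 UMIs, and the T-box factor *Tbx3* gave 1. *Tbx20*, a T-box factor of branchial and visceral motor neurons, gave 35 UMIs in 21 nuclei, at 22.7 CPM against 0.622 CPM. *Tbx2*, another T-box factor, gave 21 UMIs in 15 nuclei, at 13.6 CPM against 0.342 CPM. The median depth was 29520 UMIs in nuclei with *Tbx20* and 27142.5 UMIs in those without. *Slc10a4*, a vesicular transporter of cholinergic and monoamine neurons, gave 44 UMIs in 29 nuclei, at 28.6 CPM against 1.12 CPM.

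Genes of motor neuron types did not all point one way. Of those linked to gamma motor neurons, which supply muscle spindles, *Gfra1* was 5.45-fold higher [4.942, 5.996] at 294 CPM, *Esrrg* stood at 533 CPM against 607 CPM, and *Htr1d* had no UMIs. Of 8 genes linked to alpha motor neurons and their fast or slow types, 6 passed the filter. *Vipr2*, *Chodl* and *Calcb*, described above, were at least 4-fold higher, each having passed through its neuron.8 count alone. *Sv2a* was at least 4-fold lower. Of all genes tested, 2.65% were at least 4-fold higher and 2.41% lower. *Spp1* stood at 35.7 CPM against 33.7 CPM and *Rbfox3* at 162 CPM against 258 CPM in the other neuron clusters. *Mmp9*, known from the most fatigable fast units, gave 4 UMIs, and *Sv2a*, known from slow units, was 4.52-fold lower [3.29, 6.39] at 24.7 CPM. *Nos1*, found in autonomic preganglionic neurons, gave 7 UMIs, at 4.55 CPM against 16.4 CPM.

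Receptors for muscle-derived and glial trophic factors were present. *Ret*, the signalling receptor for GDNF family ligands, was 4.17-fold higher [3.203, 5.348] at 42.9 CPM, together with its co-receptor *Gfra1*. Of the 14 trophic factor receptors, 8 passed the filter, 2 were at least 4-fold higher, *Ret* having passed through its neuron.8 count alone, and 0 were at least 4-fold lower. The shares over all genes tested were 2.65% higher and 2.41% lower. Among the others, *Lifr*, part of the receptor for CNTF and LIF, stood at 117 CPM against 49.3 CPM, *Cntfr* at 42.2 CPM against 23.1 CPM, and *Ntrk3* at 371 CPM against 375 CPM. *Nrg1*, which motor neurons send to muscle and Schwann cells, stood at 6884 CPM against 2451 CPM in the other neuron clusters. *Agrn*, the organizer of the nerve to muscle synapse, stood at 218 CPM against 142 CPM. The 5 nerve to muscle signal genes summed to 7229 CPM in neuron.8, but neuron.4 reached 5005 CPM.

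Position genes were sparse. Of the 25 Hox genes in the table, which mark levels of the hindbrain and spinal cord, 16 had no UMIs in neuron.8 and the other 9 summed to 34 UMIs in 23 nuclei. Their summed level was 22.1 CPM, below the 34.8 to 410 CPM of the other 8 neuron clusters. The most frequent was *Hoxb3*, with 9 UMIs, at 5.85 CPM against 28.0 CPM. Of the 119 lineage transcription factors in the table, 28 passed the filter. *Isl1*, which passed through its neuron.8 count alone, was at least 4-fold higher, and *Lhx4* missed the minimum of 50 UMIs with 49. *Ebf2*, *Ebf3*, *Foxp2*, *Bcl11a* and *Pax2* were among the 6 at least 4-fold lower. For all genes tested, 2.65% were at least 4-fold higher and 2.41% lower.

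Most ion channel genes did not cross 4-fold in neuron.8. Over all genes tested, 2.65% were at least 4-fold higher and 2.41% at least 4-fold lower, with a median ratio of 0.883. Of 13 sodium channel genes, 8 passed the filter, none crossed 4-fold in either direction, and their median ratio was 0.871. Of 48 potassium channel genes, 33 passed, 1 was higher and 5 were lower, with a median ratio of 0.734. The higher one was *Kcnmb4*, a regulatory subunit of BK channels, at 34.4 CPM against 4.81 CPM, although neuron.5 reached 37.6 CPM, and it passed the filter through its neuron.8 count alone. The lower ones were *Kcnmb2*, another BK subunit, 30.9-fold lower [15.7, 71.5] with 8 UMIs, and *Kcnh8*, *Kcnq5*, *Kcnh7* and *Kcnc1*, between 5.03-fold and 11.4-fold lower. *Cacna1e*, the R-type calcium channel, was 6.82-fold lower [5.35, 8.83]. *Kcnk9*, an acid-sensitive leak channel, stood at 92.9 CPM against 29.1 CPM, under 4-fold.

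Among receptors, *Grm5*, a metabotropic glutamate receptor, stood at 79.9 CPM against 1121 CPM, 14.0-fold lower [11.8, 16.9]. Of 17 ionotropic glutamate receptor genes that passed, *Grin3b* was at least 4-fold higher, but it passed through its neuron.8 count alone. *Grik1* and *Grik3*, kainate receptor subunits, were 4.09-fold and 4.48-fold lower. Of 16 GABA and glycine receptor genes, *Glra3* was 4.79-fold lower, while *Glra1*, the main adult glycine receptor subunit, stood at 309 CPM against 216 CPM. Of 16 monoamine, acetylcholine and peptide receptor genes that passed, *Chrm3*, *Htr4* and *Oprm1* were at least 4-fold lower and none was at least 4-fold higher. The all-gene shares beside these receptor counts are 2.41% lower and 2.65% higher. *Chrm2*, the M2 muscarinic receptor of motor neuron C-bouton synapses, stood at 539 CPM against 244 CPM. Of the 5 C-bouton genes listed, 4 passed the filter and none crossed 4-fold. That list summed to 931 CPM in neuron.8, below the 964 CPM of neuron.4. *Trhr*, the receptor for thyrotropin-releasing hormone, gave 46 UMIs in 24 nuclei, at 29.9 CPM against 5.96 CPM, just under the minimum of 50 UMIs.

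**Figure D5:**
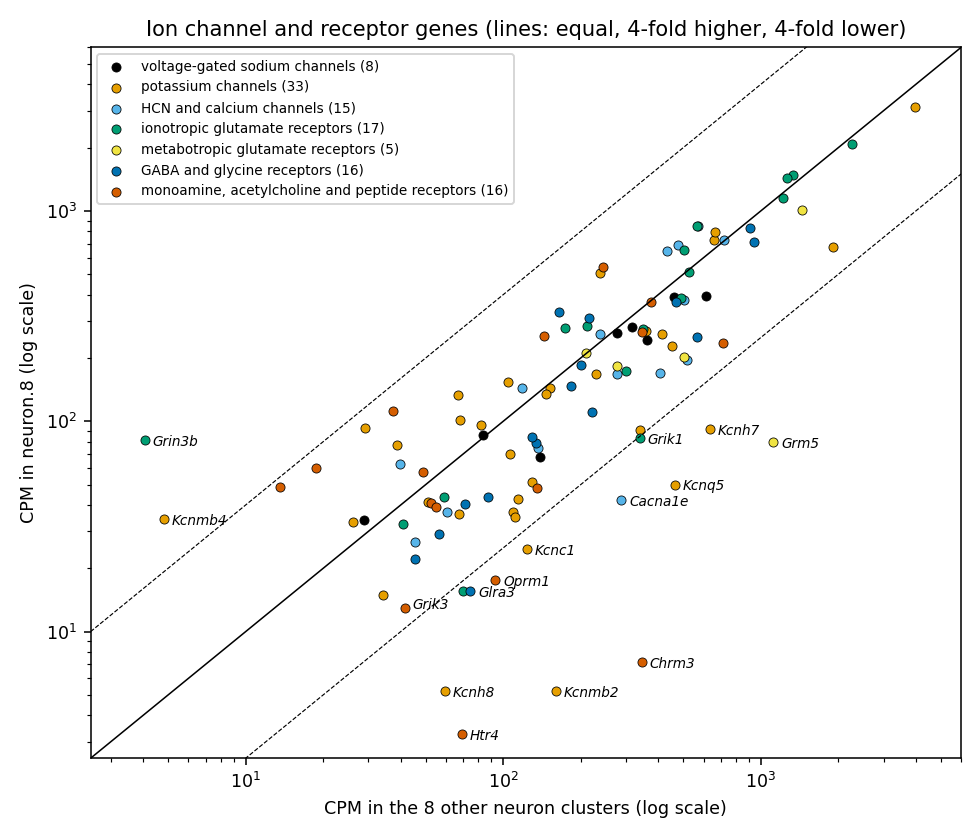
CPM in neuron.8 (vertical, log axis) against CPM in the 8 other neuron clusters (horizontal, log axis) for the ion channel and receptor genes that passed the filter, coloured by family with the number in each, with lines at equal level and at 4-fold. *Grin3b* and *Kcnmb4* lay above the upper line, and *Chrm3*, *Grm5*, *Kcnmb2* and *Kcnq5* were among those below the lower one.

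Among axon genes, *Nefm*, *Nefl* and *Nefh*, the neurofilament subunits of large axons, were at 522, 194 and 71.4 CPM in neuron.8. In the other neuron clusters they were at 153, 74.9 and 33.0 CPM, each under 4-fold. All 3 were higher still in neuron.9, at 830, 1056 and 237 CPM. Neuron.9 is 37 shallow nuclei, with medians of 2034 UMIs, 6.64% mitochondrial UMIs and 11.1% ribosomal protein UMIs. *Ina*, another neuronal intermediate filament gene, was lowest in neuron.8 of the 9 clusters, at 16.9 CPM against 62.7 CPM. *Gap43*, a growth cone protein, was 5.98-fold lower at 20.8 CPM. It was the only 1 of 8 axon growth and injury genes that passed to be at least 4-fold lower. *Prph*, which passed through its neuron.8 count alone, was at least 4-fold higher. Of the 8, 7 had a ratio above 1, as did 35.9% of all genes tested, and their median ratio was 2.04. *Slit3*, a secreted axon guidance ligand, was 11.97-fold higher [11.44, 12.51] at 1461 CPM, with 1462 CPM in the WT and 1452 CPM in the HET nuclei and a UMI in 52 of 53. Its nearest cluster was neuron.6, at 829 CPM. *Nrp1*, a semaphorin receptor, was 4.42-fold higher [4.03, 4.85] at 314 CPM, but neuron.2 reached 308 CPM. *Robo2*, a Slit receptor, was 4.51-fold lower [3.94, 5.18]. Of the 47 adhesion and guidance genes that passed, 2 were at least 4-fold higher and 2 lower, beside 2.65% and 2.41% of all genes tested.

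Within the cluster, *Chat*, *Slc5a7* and *Prph* were even and several of the 25 top genes were patchy. If its 300 UMIs had been spread in proportion to the depth of the nuclei, *Rxfp1*, a relaxin receptor, would have been present in 52.1 of 53 nuclei, but it was present in 19, up to 52 UMIs in 1 nucleus. Of those 19 nuclei, 18 also held *Chodl*, which was present in 33. Nuclei with *Rxfp1* had a median of 34788 UMIs and those without had 24418.5 UMIs. *Spint2* gave 1157 UMIs in 28 nuclei against 52.999 expected, with up to 236 UMIs in 1 WT nucleus, and the noncoding RNA *Gm32004* gave 661 UMIs in 26 nuclei against 52.97 expected. *Spint2* and *Gm32004* were both present in 19 nuclei. For *Chat*, by contrast, 51.3 nuclei were expected and 51 were found.

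Such patchiness was rare. Of the 2603 genes with at least 100 UMIs in neuron.8, 29 were present in under 50% of the nuclei expected from depth, and for 14 a single nucleus held at least 50% of the UMIs. Their sums describe those nuclei and not the cluster. *Dqx1*, an RNA helicase-like gene, had 243 of its 244 UMIs in 1 WT nucleus, and *Vwf*, a gene of endothelial cells, had 101 of 108 in 1 WT nucleus. *Shoc1*, a meiosis gene, gave 211 UMIs in 12 nuclei, and the olfactory receptor gene *Olfr889* gave 210 UMIs in 11 nuclei, 30 of them in the nucleus with high *Slc6a5*.

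By overall profile, neuron.8 was about equally close to 3 clusters. Over 15352 genes, with every cluster drawn down to 92765 UMIs, the Spearman correlation of log2(CPM + 1) was 0.689 with neuron.1, 0.688 with neuron.3 and 0.684 with neuron.4. It was lowest with neuron.9, at 0.398. These correlations are across genes, which are not independent, and they describe profiles that share libraries. Against neuron.1 alone, 155 of 5850 genes were at least 4-fold higher in neuron.8 (2.65%) and 137 at least 4-fold lower (2.34%). Against neuron.3, 212 of 5720 genes were higher (3.71%) and 145 lower (2.53%).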

How the data were processed

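Single-nucleus RNA-seq of 1 WT and 1 HET brainstem library was analysed. The authors deposited raw counts, as UMIs for each gene in each nucleus, for 25556 genes in 18281 nuclei, with 70301390 UMIs in the WT and 66176778 UMIs in the HET library. They were made from 10x 3′ v3.1 libraries with Cell Ranger (version not given in the sources used here) on mm10 and filtered in Seurat 4.1, per the labels. The authors also deposited the percent of mitochondrial and ribosomal UMIs, a doublet score from a caller not given in the sources used here, the clusters and the reference labels, all used as deposited. No nucleus was removed as a doublet.

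Levels are CPM of summed UMIs, and ratios have exact conditional intervals at 95%. A gene was counted past 4-fold if it had at least 50 UMIs in neuron.8, or was predicted to from the other neuron clusters. Shares at equal depth are expected shares with 1000 UMIs drawn from each nucleus. Cluster correlations used genes with at least 200 UMIs in all neuron clusters together, and seed 1 for drawing. Gene positions are from GENCODE vM21 on GRCm38, the same build as mm10, and promoter sequences are from RefSeq. Named genes are the 25 largest ratios (at least 50 UMIs and 10 nuclei), the 10 smallest (at least 50 predicted), and list members, mainly those past 4-fold. The cluster and the gene lists were chosen with earlier results of these data known, and the lists on motor neuron types, trophic receptors, nerve to muscle signals, C-boutons and axon growth after the values were seen. The alternatives were other references, nuclei, scalings and minimum counts. A few list members and 1 of the 10 smallest ratios are not reported here. The pipeline was tested on simulated data. The software was scipy 1.17.1, numpy 2.4.6, pandas 2.3.3 and matplotlib 3.10.9 under Python 3.11.15.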

Additional observations from a re-analysis of the deposited data

How the results depend on the processing

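No paired analysis was possible because each genotype has 1 library, so the groups share fewer than 2 replicate numbers, and leaving out a replicate was not possible for the same reason. The counts of genes at least 4-fold higher and lower, 154 and 140 of 5820, changed with the minimum count, which sets how many genes are tested. They were 252 and 292 of 9824 at 20 UMIs, 34 and 46 of 1426 at 200 UMIs and 1114 and 1869 of 19596 with 1 UMI. With fewer nuclei, they were 18 and 54 of 849 genes in the HET library alone. Without the top 5% of doublet scores, which left 23 neuron.8 nuclei, they were 62 and 71 of 2201. With the other clusters weighted equally 499 of 6199 genes were lower. The counts did not move in step with the number of genes tested, and the cause was not tested. The share of neuron.8 in WT was 0.719% of neuronal nuclei in place of 0.475% of all nuclei. The correlation with neuron.1 was 0.713 over genes with at least 50 UMIs, 0.661 over those with at least 1000 UMIs, where neuron.3 was nearest at 0.662, and 0.666 in the WT library alone. For the 37 named or marker genes with a UMI in neuron.8, none of 353 alternative values changed direction. Most of these genes were named for extreme ratios and the alternatives reuse the same nuclei, so this says little about stability. Of the 353, 80 lay outside the counting interval of the value reported. Those 80 included 21 with the other clusters weighted equally, 16 without the top 5% of doublet scores and 14 in the HET library alone. The 353 include 2 alternatives chosen after seeing the data: a reference of nuclei with at least 10000 UMIs and leaving out the nucleus with the most UMIs of a gene. Of 250 alternative values of the 25 largest ratios, 1 was under 4-fold, *Lgals1* with the other clusters weighted equally (1.21 on the log2 scale). The log2 ratio of *Gm32004* was 3.81 in place of 5.46 in the HET library alone. With 9 HET nuclei, genes of a few UMIs were not detectable there.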

Other observations

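Cholinergic nuclei were not confined to neuron.8. Nuclei with at least 2 UMIs of both *Chat* and *Slc5a7*, a rule set after the values were seen, numbered 42 of 53 in neuron.8, 37 of 9111 in neuron.1 (19 WT and 18 HET) and 0 in each of the other 14 clusters. The 37 neuron.1 nuclei had a median of 15403 UMIs. This rule depends on depth, whose median was 8125 UMIs in all neuron.1 nuclei and 27192 UMIs in neuron.8. All of neuron.1 held 436 *Chat* and 747 *Slc5a7* UMIs, of which the 37 nuclei held 153 and 206. *Nos1*, which makes nitric oxide, stood at 265 CPM over these 37 nuclei, 12 of which had a UMI of it, against 4.55 CPM in neuron.8. *Tbx20*, the T-box factor of branchial and visceral motor neurons, stood at 62.1 CPM over the 37, with a UMI in 11, against 22.7 CPM in neuron.8. *Prph* had a UMI in 12 nuclei and *Isl1* in 4, and their levels over the 37 were 106 and 14.6 CPM.

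Other genes of neuron.8 were rare in these 37 nuclei. *Calcb* and *Vipr2* gave 1 UMI each, *Chodl* gave 6 UMIs in 3 nuclei, and *Lhx4* gave none, against 31.8 CPM in neuron.8. *Gfra1* stood at 69.4 CPM over the 37, with a UMI in 13, against 294 CPM in neuron.8, and *Ecel1* at 102 CPM, against 87.0 CPM. These are values of a few nuclei picked by 2 of the genes compared, with no test.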
